A study of Homo sapiens with 12 samples.

Results

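Receptor tyrosine kinases for FGF, PDGF, HGF, ephrin and collagen ligands were followed in RMS cells with and without depletion of KDM3A. The set held 10 genes, taken by symbol from the 65975 gene identifiers of the table: FGFR1, FGFR2, FGFR3, MET, PDGFRA, PDGFRB, EPHA2, EPHB2, DDR1 and DDR2. They were chosen as growth factor receptor kinases known in RMS, with earlier results of these data known. RNA was sequenced from RD cells, a line of the fusion-negative subtype (FN-RMS), and from Rh30 cells, a line of the PAX3-FOXO1 fusion-positive subtype (FP-RMS). Cells of both lines carried a lentiviral shRNA and were selected with 1 ug/ml Puromycin. The RD Scramble and Rh30 Scramble groups carried a control hairpin, and the RD KDM3A-sh2 and Rh30 KDM3A-sh2 groups a hairpin against KDM3A, a histone H3K9 demethylase, with 3 libraries in each of the 4 groups. A single KDM3A hairpin and a single line per subtype were sequenced. RD cells carry an activating Ras mutation, as the study states, and it does not give the Ras status of Rh30. The lines were grown in different media (DMEM for RD, RPMI for Rh30). Line, subtype, the RD Ras mutation and medium therefore cannot be told apart.

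These receptors are single-pass membrane proteins that phosphorylate each other and docking proteins when a ligand binds. From growth factor receptors the signal can run on through adaptors to the Ras-ERK and PI3K-AKT routes. It is damped by inhibitors that the same signal induces, such as the Sprouty and DUSP proteins. In muscle precursors FGF signals favour division over differentiation, HGF acting on MET guides migration, ephrins on neighbouring cells act on Eph receptors at contacts, and collagens of the matrix act on DDR1 and DDR2.

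Expression was measured as FPKM, a fragment count scaled by the length of the transcript and the size of the library, which allows levels to be compared between genes. Differences are given as log2 of (FPKM + 1) between group means, with the standard error (SE), and this scale understates the change of genes with low values. Adjusted p values come from limma over every gene that averaged 1 FPKM or more across the libraries compared, and a gene was called at an adjusted p under 0.05. The table holds no read counts, so the depth behind a value was unknown. From the steps of the low values, the relative depth of the libraries ran from 0.860 to 1.17, and it was lower in the RD KDM3A-sh2 libraries (0.860 to 0.985) than in the RD Scramble libraries (1.06 to 1.17). Nothing in the labels or methods ties the 3 libraries of a group to separate cultures, so the spread between them may be technical. The titles number the Rh30 Scramble libraries 1 to 3, but their 3 table headers end in the same number, unlike those of the other groups, so that they may be repeat libraries of one sample. The median SD of log2 (FPKM + 1) over 18532 genes was 0.0946 in Rh30 Scramble and 0.0828 to 0.089 in the other groups. KDM3A itself averaged 33.5 ± 2.50 FPKM (SD, n = 3) in RD Scramble and 12.2 ± 1.09 in RD KDM3A-sh2, and 29.7 ± 2.14 in Rh30 Scramble and 14.1 ± 1.15 in Rh30 KDM3A-sh2 (SD, n = 3 each), with no overlap in either line. The muscle genes MYOD1, MYOG, DES, CDH15 and CHRNA1 were above 1 FPKM in all 12 libraries and MYF5 was near 0, with a summed level of 2123 to 2343 FPKM in RD Scramble, 2629 to 2751 in RD KDM3A-sh2, 2453 to 2724 in Rh30 Scramble and 2830 to 2861 in Rh30 KDM3A-sh2. A sum is carried mostly by the most abundant genes, and the 5 muscle genes tested did not move together. In RD, 2 were called higher and 3 lower (median log2 difference -0.14), beside 21.6% and 19.5% of all genes. In Rh30, 2 were called higher and 2 lower (median -0.12), beside 15.3% and 13.2% of all genes. The part of these muscle gene changes in the receptor results was not tested. Of 8 leukocyte, endothelial and epithelial markers, none reached 1 FPKM in all libraries of an RD group, and EPCAM, an epithelial adhesion protein, did so in Rh30, at a mean of 4.63 FPKM in Scramble and 6.03 in KDM3A-sh2. Of the others, PTPRC, CD3E, PECAM1, CDH5, KRT5 and CDH1 had group means from 0 to 0.935 FPKM.

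In control cells the 2 lines expressed these receptors in different proportions. In RD Scramble, FGFR1 had the highest level of the 10, at 125 ± 9.06 FPKM (SD, n = 3), or 36.9% of their summed level, followed by DDR2 at 68.9 ± 7.07, EPHA2 at 60.4 ± 2.22 and DDR1 at 51.1 ± 7.34. In Rh30 Scramble, DDR1 led at 156 ± 9.30 FPKM (34.3% of the sum), followed by EPHA2 at 89.5 ± 8.58, FGFR1 at 57.8 ± 2.86 and MET at 53.2 ± 1.38. The summed level of the 10 receptors was 328 to 343 FPKM in RD Scramble and 435 to 468 in Rh30 Scramble. In bulk RNA, fewer cells with a transcript and less of it per cell cannot be told apart. With KDM3A-sh2 the sum was 414 to 422 FPKM in RD, above every RD Scramble library, and 431 to 471 in Rh30, which overlapped Rh30 Scramble.

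**Figure D1:**
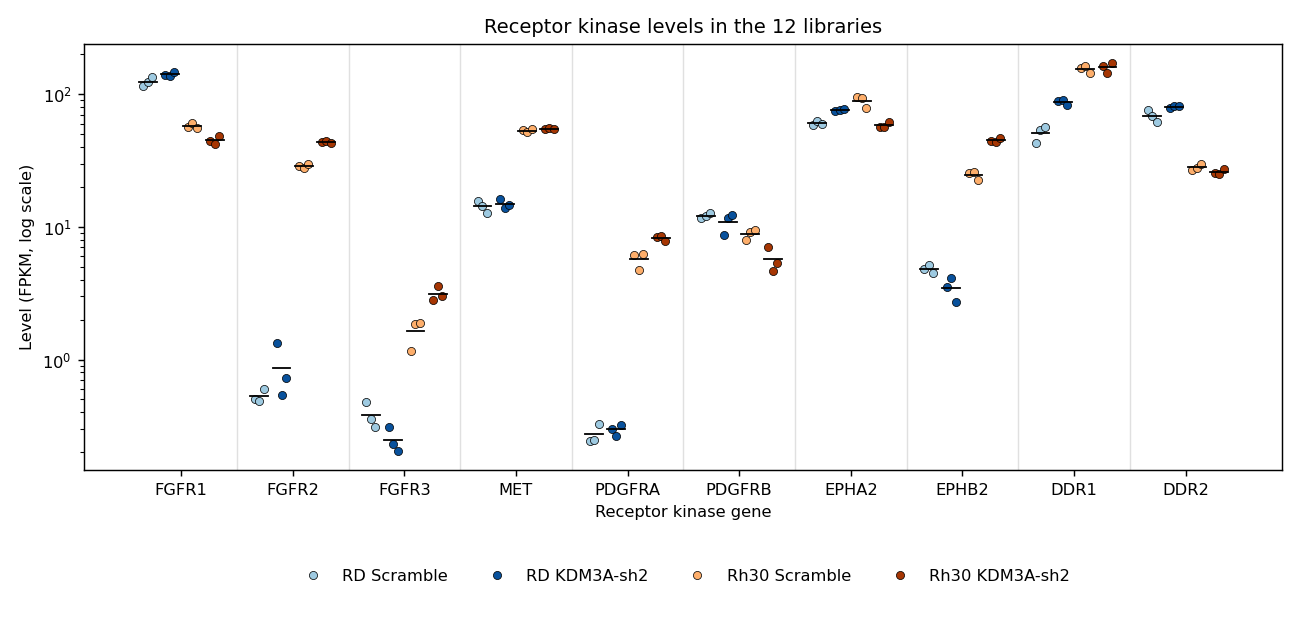
Level of each receptor kinase gene (FPKM, log axis) in each of the 12 libraries, coloured by group, with 3 points per group and a black line at the group mean. FGFR2 lay at 1.34 FPKM or lower in every RD library and at 28.0 or higher in every Rh30 library, while FGFR1 and DDR2 were higher in RD.

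Between Scramble libraries of the lines, all 10 receptors were called. Across the 18357 genes tested, 35.0% were called higher in Rh30 and 39.6% lower, so that a call was common. FGFR2, FGFR3 and PDGFRA passed the filter through their Rh30 levels and had to differ. Of the 10, 7 were higher in Rh30, with log2 differences of 4.29 for FGFR2, 2.40 for PDGFRA, 2.13 for EPHB2, 1.83 for MET, 1.60 for DDR1, 0.92 for FGFR3 and 0.56 for EPHA2. DDR2 (-1.26), FGFR1 (-1.09) and PDGFRB (-0.42) were lower in Rh30. Scaling every library to the same sum moved the median of all genes in this comparison from -0.04 to -0.14, a shift smaller than each of these differences.

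The response to KDM3A-sh2 also differed by line. In RD, 7 of the 10 receptors passed the filter on low values, and 4 of them (DDR1, EPHA2, DDR2 and FGFR1) were upregulated and 0 downregulated. Across all 17988 genes tested in RD, 21.6% were called higher and 19.5% lower. In Rh30 all 10 passed the filter. EPHB2, FGFR2, FGFR3 and PDGFRA were upregulated, and EPHA2, FGFR1 and PDGFRB were downregulated. Across the 17803 genes tested in Rh30, 15.3% were called higher and 13.2% lower. No overlap between the KDM3A-sh2 and Scramble libraries was found for 5 of the 7 tested receptors in RD and 8 of 10 in Rh30, compared with 53.4% and 45.8% of all genes tested. The smallest exact permutation p that 3 libraries against 3 allow is 0.1, two-sided.

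**Figure D2:**
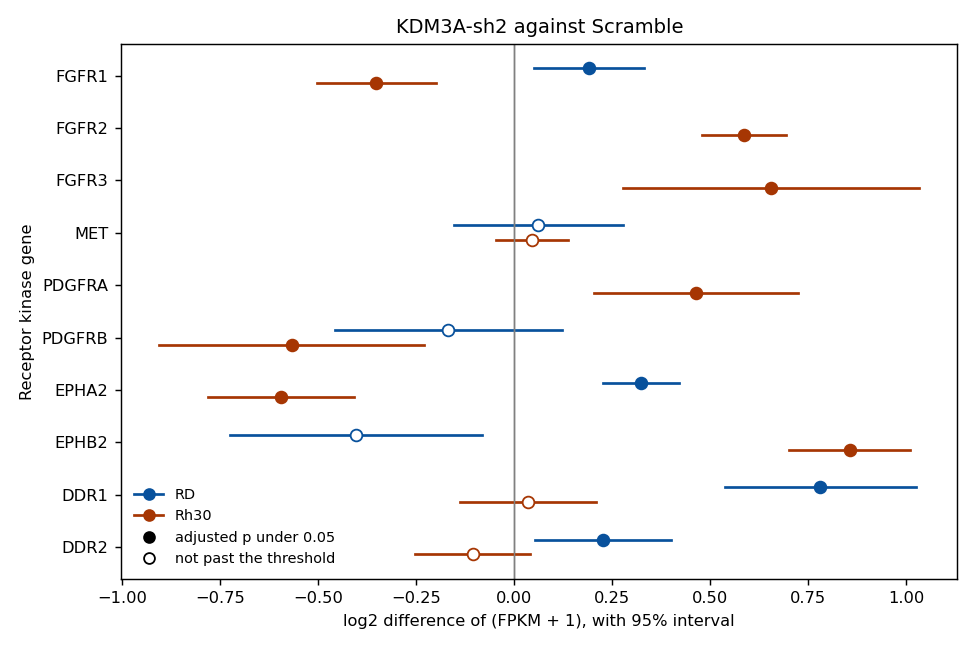
Difference of each receptor between KDM3A-sh2 and Scramble libraries (log2 of FPKM + 1) with its 95% interval, in RD (blue) and Rh30 (brown), with 3 libraries per group. Filled points passed an adjusted p of 0.05 and open points did not. EPHA2 and FGFR1 were called in opposite directions, and FGFR2, FGFR3 and PDGFRA were under the filter in RD. The RD call of FGFR1 was kept in 6 of 13 alternative settings.

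Eph receptors moved in opposite directions in Rh30. EPHB2 encodes a receptor for B-type ephrins, which sit in the membrane of neighbouring cells, and EPHA2 a receptor for A-type ephrins. Both genes lie on chromosome 1 of GRCh38, EPHA2 (ENSG00000142627) from 16124337 to 16156087 on the minus strand and EPHB2 (ENSG00000133216) from 22710839 to 22921500 on the plus strand. Their promoters, with that of FGFR2, are printed because these 3 genes had the smallest adjusted p of the 10 receptors in RD or Rh30. The windows run from 250 bases before to 50 bases after the RefSeq start (assembly GRCh38.p14), 5′ to 3′ on the strand of the gene. EPHA2 is chr1:16156020-16156319, EPHB2 is chr1:22710588-22710887, and FGFR2 is chr10:121598395-121598694. Table windows number 1 for EPHA2, 2 for EPHB2 and 5 for FGFR2, with the first shown. Capitals mark GC boxes (GGGCGG), a cyclic AMP response element (CRE, TGACGTCA) and a TEAD word (CATTCC), searched on both strands.
EPHA2: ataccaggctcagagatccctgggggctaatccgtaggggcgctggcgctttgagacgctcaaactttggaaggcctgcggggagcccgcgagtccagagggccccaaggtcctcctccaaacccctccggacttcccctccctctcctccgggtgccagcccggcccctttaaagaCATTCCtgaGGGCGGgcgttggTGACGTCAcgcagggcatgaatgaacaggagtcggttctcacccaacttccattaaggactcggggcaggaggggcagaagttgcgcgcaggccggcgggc
EPHB2: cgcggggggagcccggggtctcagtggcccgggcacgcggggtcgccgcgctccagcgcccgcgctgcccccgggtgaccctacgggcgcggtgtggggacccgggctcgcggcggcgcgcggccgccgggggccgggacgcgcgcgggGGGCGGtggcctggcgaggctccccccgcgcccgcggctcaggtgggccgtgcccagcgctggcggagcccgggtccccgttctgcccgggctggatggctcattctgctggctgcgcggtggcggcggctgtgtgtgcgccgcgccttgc
FGFR2: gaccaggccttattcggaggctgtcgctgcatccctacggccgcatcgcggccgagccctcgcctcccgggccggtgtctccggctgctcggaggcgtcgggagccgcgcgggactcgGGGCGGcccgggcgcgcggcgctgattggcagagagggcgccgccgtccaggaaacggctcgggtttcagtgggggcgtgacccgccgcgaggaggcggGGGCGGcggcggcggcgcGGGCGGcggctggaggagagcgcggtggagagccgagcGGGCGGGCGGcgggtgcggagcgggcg

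The EPHA2 window held a TEAD word, a GC box and a CRE within bases 178 to 207 of the window, all before the start. The EPHB2 window held 1 GC box, and the FGFR2 window held 5, of which the last 2 share letters. Of 35116 promoter windows in the table, 45% held a GC box, 14% the TEAD word and 1.85% the CRE. An ETS-type core (CCGGAA, 17.2% of all windows), a TATA box (TATAAA, 11.5%), an AP-1 word (TGACTCA, 4.95%) and an E-box (CAGCTG, 17.9%) were also searched and did not occur in these 3 windows. These matches describe letters and not bound factors.

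EPHB2 stood at 25.4, 26.0 and 22.5 FPKM in the Rh30 Scramble libraries and at 44.6, 44.1 and 47.3 FPKM in the Rh30 KDM3A-sh2 libraries. In RD it was far lower, at 4.82, 5.20 and 4.52 FPKM with Scramble and 3.51, 4.13 and 2.71 with KDM3A-sh2. The groups did not overlap in either line, and they moved apart in opposite directions. In Rh30 the log2 difference was 0.85 (SE 0.07, adjusted p = 0.000334 from limma). In RD it was -0.40 (SE 0.14, 95% interval -0.73 to -0.08, adjusted p = 0.0510 from limma), just short of the threshold. Without RD KDM3A-sh2 replicate 2 it was -0.51 (adjusted p = 0.0288). The RD difference was called in 2 of 12 alternative settings, over which the adjusted p ran from 0.0288 to 0.141. The difference between the lines was 1.26 (SE 0.15, adjusted p = 0.000143 from limma). EFNB2, a B-type ephrin and ligand of EPHB2, also rose in Rh30, from 9.10 ± 0.27 to 19.8 ± 0.55 FPKM (SD, n = 3), a log2 difference of 1.04 (adjusted p = 0.000110 from limma). In RD, EFNB2 had group means of 0.614 and 0.732 FPKM and was not tested. EFNB1 and EFNB3, the other B-type ephrins, were lower in RD (log2 differences of -0.61 and -0.35), and in Rh30 EFNB3 was lower (-0.46) while EFNB1 had a difference of -0.10 that did not pass. EPHB2 overlaps AL512444.1 and MIR4253 on the opposite strand, and whether strand was used in counting was not given in the sources used here.

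EPHA2 moved the other way round. Its levels were 95.1, 93.8 and 79.6 FPKM in Rh30 Scramble and 56.9, 57.0 and 62.4 in Rh30 KDM3A-sh2. In RD they were 59.0, 63.0 and 59.4 FPKM with Scramble and 74.5, 75.7 and 77.3 with KDM3A-sh2. In each line the groups did not overlap. EPHA2 fell by 0.60 on the log2 scale in Rh30 (SE 0.08, adjusted p = 0.00250 from limma) and rose by 0.32 in RD (SE 0.04, adjusted p = 0.00104). The difference between the lines was -0.92 (SE 0.09, adjusted p = 4.45e-05 from limma), the smallest adjusted p of the 10 receptors. In Scramble cells EPHA2 was higher in Rh30 than in RD. With KDM3A-sh2 this order was turned, since every RD KDM3A-sh2 library lay above every Rh30 KDM3A-sh2 library. EFNA1, an A-type ephrin and ligand of EPHA2, fell in both lines, with levels of 3.76 ± 0.18 (Scramble) and 1.82 ± 0.34 FPKM (KDM3A-sh2) in RD, and 4.30 ± 0.50 and 2.30 ± 0.08 in Rh30 (SD, n = 3), and with log2 differences of -0.76 and -0.68. The most abundant A-type ephrin in both lines was EFNA5, at 39.1 and 41.9 FPKM in RD and 43.6 and 44.9 in Rh30 (Scramble and KDM3A-sh2), with log2 differences of 0.10 and 0.04 that did not pass. EPHA2 overlaps AL451042.2 on the opposite strand.

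FGF receptors split in Rh30. FGFR1 (ENSG00000077782, chromosome 8, 38400215 to 38468834, minus strand) and FGFR2 (ENSG00000066468, chromosome 10, 121478334 to 121598458, minus strand) both signal through the docking protein FRS2. FGFR1 stood at 57.1, 60.9 and 55.4 FPKM in Rh30 Scramble and 44.7, 42.2 and 48.4 in Rh30 KDM3A-sh2, without overlap, a log2 difference of -0.35 (SE 0.06, adjusted p = 0.00834 from limma). In RD, its level was 116, 123 and 134 FPKM with Scramble and 141, 137 and 148 with KDM3A-sh2. These groups lay close to each other without overlap, with a log2 difference of 0.19 (SE 0.06, adjusted p = 0.0394 from limma). The RD call was lost when any library other than RD Scramble replicate 3 was left out (adjusted p from 0.056 to 0.108) and was kept in 6 of 13 alternatives, over which the adjusted p ran from 0.0144 to 0.108. The difference between the lines, -0.54 (SE 0.09, adjusted p = 0.00132), was called in all 19 alternatives. FGFR1 overlaps AC087623.1 and LETM2 on the opposite strand.

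FGFR2 was at 28.8, 28.0 and 30.0 FPKM in Rh30 Scramble and 43.8, 44.9 and 43.1 in Rh30 KDM3A-sh2, a rise of 0.59 on the log2 scale (SE 0.05, adjusted p = 0.000348 from limma) with a tight spread in both groups. In RD, it was at 0.505, 0.489 and 0.595 FPKM with Scramble and 1.34, 0.539 and 0.722 with KDM3A-sh2, below the filter, and the groups overlapped. Its difference between the lines was 0.32 (95% interval -0.07 to 0.71, adjusted p = 0.205 from limma) and did not pass. Without RD KDM3A-sh2 replicate 1, the library at 1.34 FPKM, it was 0.50 (adjusted p = 0.00528, in a range from 8.81e-06 to 0.91 over 19 alternatives). FGFR3 (ENSG00000068078, chromosome 4, 1793293 to 1808872, plus strand), a relative that restrains bone growth, was low throughout. It stood at 1.16, 1.87 and 1.90 FPKM in Rh30 Scramble and 2.82, 3.60 and 3.00 in Rh30 KDM3A-sh2, and between 0.204 and 0.479 in the RD libraries. The Rh30 groups did not overlap, with a log2 difference of 0.66 (SE 0.16, adjusted p = 0.0236 from limma). That call was lost without Rh30 Scramble replicate 1 (0.0507) and without each Rh30 KDM3A-sh2 replicate (adjusted p from 0.0519 to 0.0773), in a range from 0.0255 to 0.0773 over 12 alternatives.

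The lines also held different FGF ligands. FGF8, which drives limb and brain patterning in the embryo, was at 173 ± 11.2 FPKM in Rh30 Scramble and 96.7 ± 7.00 in Rh30 KDM3A-sh2 (SD, n = 3), a fall of the log2 level by 0.83 (adjusted p = 0.000405 from limma), and at group means of 0.674 and 0.650 in RD. FGF7, a ligand of the epithelial splice form of FGFR2, rose in Rh30 from 51.4 ± 1.57 to 62.0 ± 1.49 FPKM (log2 difference 0.27, adjusted p = 0.00496 from limma). In RD it stood at 16.7 ± 2.86 and 20.7 ± 0.83 FPKM (0.31, adjusted p = 0.0692), which did not pass. FGF2, which binds many FGF receptors, fell in Rh30 from 6.69 ± 0.20 to 4.64 ± 0.22 FPKM (-0.45, adjusted p = 0.00651 from limma) and stood at 11.0 ± 0.84 and 11.0 ± 0.66 in RD (0.01, adjusted p = 0.930). Its difference between the lines was -0.46 (adjusted p = 0.00572). Gene-level FPKM does not tell the splice forms of the receptors apart. FGF5 and FGF1 were at 79.8 and 20.7 FPKM in RD Scramble and at 0.445 and 0.0598 in Rh30 Scramble. With KDM3A-sh2, FGF5 was lower in RD (log2 difference -0.27, adjusted p = 0.0319 from limma) and FGF1 had a difference of 0.48 that did not pass (adjusted p = 0.111).

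PDGF receptors respond to dimers of PDGF chains. PDGFRA (ENSG00000134853, chromosome 4, 54229097 to 54298247, plus strand) binds the A, B and C chains, and PDGFRB (ENSG00000113721, chromosome 5, 150113837 to 150155872, minus strand) the B and D chains. PDGFRA stood at 6.18, 4.74 and 6.29 FPKM in Rh30 Scramble and 8.35, 8.50 and 7.86 in Rh30 KDM3A-sh2, without overlap, and between 0.244 and 0.327 in all 6 RD libraries. Its Rh30 log2 difference was 0.46 (SE 0.11, adjusted p = 0.0219 from limma), lost without Rh30 KDM3A-sh2 replicate 1 (adjusted p = 0.0686) or replicate 2 (0.0683), in a range from 0.0216 to 0.0686 over 12 alternatives. PDGFRB went down in Rh30, from 7.91, 9.14 and 9.49 FPKM to 7.06, 4.68 and 5.36, without overlap, a log2 difference of -0.57 (SE 0.14, adjusted p = 0.0262 from limma). This call was lost without Rh30 Scramble replicate 2 or 3 or Rh30 KDM3A-sh2 replicate 2 or 3 (adjusted p from 0.0674 to 0.0781), in a range from 0.0124 to 0.0781 over 12 alternatives. In RD, PDGFRB was at 11.7, 12.1 and 12.7 FPKM with Scramble and 8.68, 11.6 and 12.2 with KDM3A-sh2. These groups overlapped, with RD KDM3A-sh2 replicate 1 the lowest (log2 difference -0.17, 95% interval -0.46 to 0.12, adjusted p = 0.312 from limma). Of the ligands, PDGFD rose in RD from 4.04 ± 0.09 to 9.78 ± 0.51 FPKM (log2 difference 1.10, adjusted p = 8.09e-05 from limma), and PDGFC from 54.5 ± 3.13 to 65.0 ± 1.32 (0.25, adjusted p = 0.00705). PDGFA was slightly lower in RD with KDM3A-sh2, from 54.0 ± 1.05 to 48.7 ± 1.47 FPKM without overlap (-0.15, adjusted p = 0.0260 from limma), a call kept in 7 of 13 alternatives (adjusted p from 0.0201 to 0.0855). In Rh30, PDGFD, PDGFC and PDGFA had log2 differences of 0.21 (adjusted p = 0.120), -0.05 (0.647) and -0.03 (0.759). PDGFB had group means from 0.166 to 0.480 FPKM and was not tested.

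MET (ENSG00000105976, chromosome 7, 116672390 to 116798386, plus strand) did not pass in either line. It stood at 53.6, 51.7 and 54.4 FPKM in Rh30 Scramble and 54.6, 55.6 and 54.8 in Rh30 KDM3A-sh2, and at 15.6, 14.5 and 12.8 FPKM in RD Scramble and 16.4, 13.9 and 14.5 in RD KDM3A-sh2. The log2 differences were 0.05 in Rh30 (95% interval -0.05 to 0.14, adjusted p = 0.415) and 0.06 in RD (95% interval -0.15 to 0.28, adjusted p = 0.628 from limma), so these intervals hold changes of up to 0.14 in Rh30 and 0.28 in RD. The RD difference changed sign without RD Scramble replicate 3 (-0.0095) and without RD KDM3A-sh2 replicate 1 (-0.0022). HGF, the ligand of MET, was below 1 FPKM in all 12 libraries, with group means from 0.0516 to 0.542, and was not tested.

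The collagen receptors differed from each other. DDR1 (ENSG00000204580, chromosome 6, 30876421 to 30900156, plus strand) is known mainly from epithelia and DDR2 (ENSG00000162733, chromosome 1, 162631373 to 162787400, plus strand) from mesenchymal cells. DDR1 stood at 42.7, 54.3 and 56.3 FPKM in RD Scramble and 88.9, 90.9 and 83.9 in RD KDM3A-sh2, far apart, a log2 difference of 0.78 (SE 0.10, adjusted p = 0.00118 from limma) that was the largest of the tested receptors in RD. In Rh30 it was at 159, 163 and 145 FPKM with Scramble and 163, 145 and 171 with KDM3A-sh2, which overlapped (log2 difference 0.03, 95% interval -0.14 to 0.21, adjusted p = 0.756 from limma). That difference changed sign without Rh30 Scramble replicate 3 (-0.0140) and without Rh30 KDM3A-sh2 replicate 3 (-0.0179). The difference between the lines was -0.75 (SE 0.14, adjusted p = 0.00235). DDR2 stood at 76.3, 68.2 and 62.2 FPKM in RD Scramble and 78.5, 81.1 and 82.1 in RD KDM3A-sh2, with a narrow gap and a log2 difference of 0.23 (SE 0.07, adjusted p = 0.0438 from limma). This call was lost when any library other than RD Scramble replicate 1 was left out (adjusted p from 0.0762 to 0.108), in a range from 0.00856 to 0.112 over 13 alternatives. In Rh30 the DDR2 levels, 26.7, 28.0 and 29.9 FPKM with Scramble and 25.7, 25.1 and 27.6 with KDM3A-sh2, overlapped (log2 difference -0.11, adjusted p = 0.242 from limma). The symbol DDR1 stands on 7 entries of the table, of which 1 holds values and was used. The other 6 are listed at 0.

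Collagen ligands of the 2 receptors moved in both directions. COL1A1, a chain of the fibrillar collagen type I, rose in RD from 125 ± 5.04 to 303 ± 11.2 FPKM (log2 difference 1.27, adjusted p = 1.24e-05) and fell in Rh30 from 12.6 ± 3.08 to 5.86 ± 1.09 (-0.97, adjusted p = 0.0101 from limma; SD, n = 3 for each level). COL2A1, the collagen of cartilage, fell in both lines, to 8.75 ± 1.04 from 40.5 ± 2.99 FPKM in RD (-2.09) and, in Rh30, to 85.7 ± 5.48 from 176 ± 11.2 (-1.03). COL3A1, which binds DDR2 among others, rose in both, to 3385 ± 89.5 from 2889 ± 55.4 FPKM in RD (0.23) and, in Rh30, to 41.8 ± 3.44 from 24.3 ± 1.37 (0.76). The collagen chains COL4A1, COL4A2, COL5A1 and COL5A2 were also called in both lines, with log2 differences of -0.21 in RD and -0.36 in Rh30 for COL4A1, -0.33 and -0.31 for COL4A2, 0.57 and -0.29 for COL5A1, and 0.41 and 0.35 for COL5A2.

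Tested as a difference of differences, the response of 7 of the 10 receptors differed between the lines. It lay above 0 (more positive in Rh30) for EPHB2, FGFR3 and PDGFRA, and below 0 for EPHA2, DDR1, FGFR1 and DDR2. FGFR3 and PDGFRA were not tested in RD, where they lay at 0.204 to 0.479 and 0.244 to 0.327 FPKM, and passed this filter through their Rh30 levels. With 1 added to every value their RD difference is held near 0, so their values here mostly restate the Rh30 change. Across the 18517 genes tested, 14.4% were called above 0 and 13.4% below. With every library scaled to the same sum, 40.6% of all called genes lay above 0 compared with 51.7% as reported. EPHB2, EPHA2, DDR1 and FGFR1 were called in all 19 alternatives. FGFR3 was called in all 18 in which it was tested, though its call within Rh30 was kept in only 6 of 12. PDGFRA (0.44, SE 0.14, adjusted p = 0.0437 from limma) kept its call in 4 of 18 alternatives, with adjusted p from 0.00983 to 0.212, and among single libraries left out it held without Rh30 Scramble replicate 1 or 3. DDR2 (-0.33, SE 0.10, adjusted p = 0.0288) kept its call in 10 of 19, with adjusted p from 0.00611 to 0.0648, and lost it without Rh30 Scramble replicate 3, Rh30 KDM3A-sh2 replicate 1 or 2, RD Scramble replicate 2 or 3, or RD KDM3A-sh2 replicate 2 or 3. MET (-0.02, 95% interval -0.24 to 0.20) and PDGFRB (-0.40, 95% interval -0.84 to 0.04) did not pass.

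**Figure D3:**
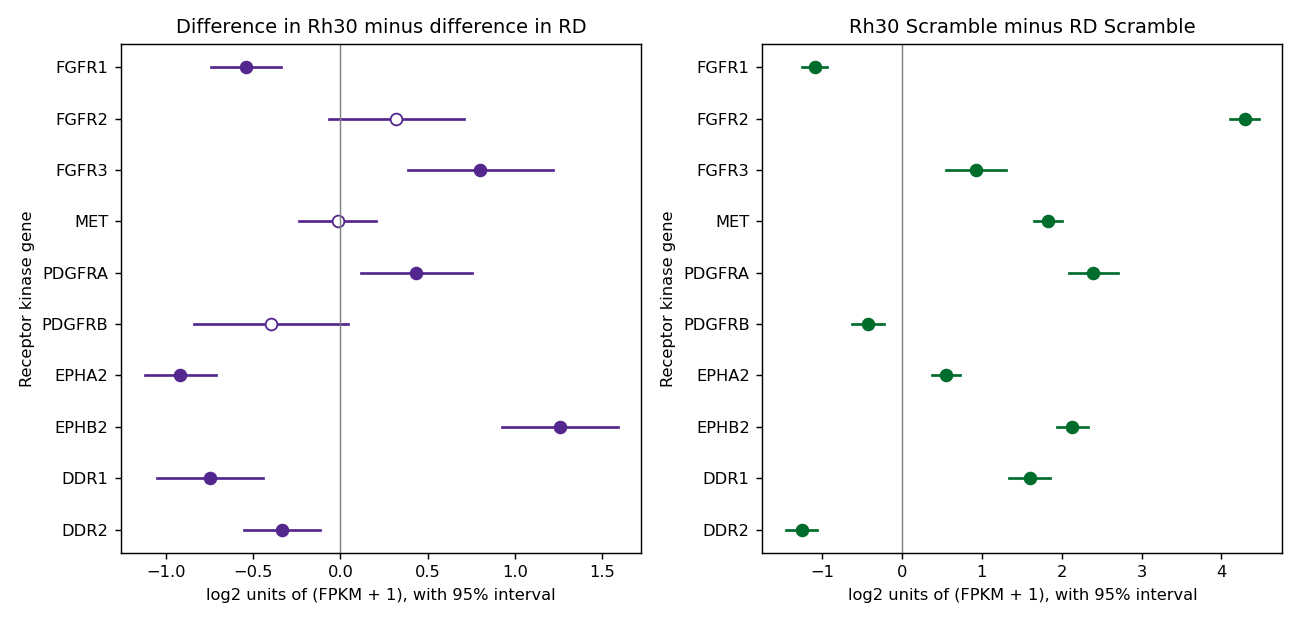
Left, the log2 difference between KDM3A-sh2 and Scramble in Rh30 minus that in RD for each receptor, over 12 libraries. Right, Rh30 Scramble minus RD Scramble, over 6 libraries. Bars are 95% intervals, and filled points passed an adjusted p of 0.05. EPHB2 (1.26) and EPHA2 (-0.92) lay farthest from 0 on the left, and FGFR2 (4.29) on the right.

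Ordered by group mean, FGFR2, MET, PDGFRA and DDR1 followed one order, Rh30 KDM3A-sh2, Rh30 Scramble, RD KDM3A-sh2 and RD Scramble. The RD groups overlapped for FGFR2, MET and PDGFRA, and the Rh30 groups overlapped for DDR1. EPHB2 and FGFR3 had the same order except that RD Scramble lay above RD KDM3A-sh2, with no neighbours overlapping. For FGFR3 the RD groups lay under the filter and barely apart. Its lowest RD Scramble library was at 0.312 FPKM and its highest RD KDM3A-sh2 library at 0.308. FGFR1 and DDR2 ran from RD KDM3A-sh2 through RD Scramble and Rh30 Scramble to Rh30 KDM3A-sh2, with overlap between the Rh30 groups for DDR2. PDGFRB ran from RD Scramble through RD KDM3A-sh2, which overlapped both RD Scramble and Rh30 Scramble, to Rh30 KDM3A-sh2. EPHA2 alone of the 10 had groups of different lines in turn, from Rh30 Scramble through RD KDM3A-sh2 and RD Scramble to Rh30 KDM3A-sh2, the last pair overlapping.

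For the 3 receptors with the widest range of group means, the genes of most like pattern were found among 11017 genes that averaged 10 FPKM or more, by the root mean square difference of centred log2 (FPKM + 1) over 12 libraries. For FGFR2 these were AGAP2-AS1 (0.18), TMEM56 (0.18) and TOX3 (0.19). AGAP2-AS1, for example, averaged 8.38 and 9.95 FPKM in RD and 185 and 244 in Rh30 (Scramble and KDM3A-sh2). For EPHB2 they were ATOH8 (0.18), CTD-2545M3.8 (0.23) and LRRC75A-AS1 (0.23), and ATOH8 averaged 30.1 and 23.2 FPKM in RD and 178 and 261 in Rh30. For PDGFRA they were NRN1 (0.12), RPL21 (0.16) and RPL39 (0.17). RPL21 and RPL39 encode ribosomal proteins with many near-identical pseudogenes, so that their values are uncertain. These likenesses are descriptions over libraries that share lines and groups.

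The wider receptor system was read from 4 further lists, written with earlier results of these data known. Of 39 listed ligands, 23 were tested in RD, with 7 higher and 9 lower and a median log2 difference of 0.01, and 22 in Rh30, with 4 higher and 9 lower and a median of -0.08. Over all genes, 21.6% were higher and 19.5% lower in RD and 15.3% and 13.2% in Rh30, with medians of 0.01 and 0.03. The largest called changes were COL2A1, COL1A2 (from 0.741 to 4.37 FPKM, 1.61) and EFNA2 (from 2.70 to 0.535 FPKM, -1.28) in RD, and EFNB2, COL2A1 and COL1A1 in Rh30. COL1A2 passed the filter through its KDM3A-sh2 level and EFNA2 through its Scramble level, so both had to differ. Of 25 related receptors and co-receptors, 7 of 13 tested were higher and 1 lower in RD (median 0.18), and 3 of 15 were higher and 4 lower in Rh30 (median 0.03). EPHA3, a receptor for A-type ephrins, rose in both lines, to 14.3 ± 0.12 from 5.97 ± 0.44 FPKM in RD (1.14) and, in Rh30, to 2.02 ± 0.14 from 1.01 ± 0.11 (0.59). The others with the largest called changes were EPHA4 (0.69) and the heparan sulfate co-receptor SDC1 (-0.50) in RD, and SDC4 (-0.59) and EPHA5 (0.56) in Rh30.

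Downstream of the receptors, a further list held 32 genes. Of these adaptors and members of the Ras-ERK and PI3K chain, 12 were higher and 3 lower in RD (median 0.13), compared with 1 higher and 6 lower in Rh30 (median -0.04). The shares over all genes were 21.6% higher and 19.5% lower in RD, and 15.3% and 13.2% in Rh30. In RD the largest called changes were PIK3R2, a regulatory subunit of PI3K (0.55), MAPK3, which encodes ERK1 (0.49), and the phosphatase PTPN11 (0.42). In Rh30 they included MAP2K1, which encodes MEK1 (-0.66, from 78.1 ± 2.28 to 49.2 ± 1.30 FPKM), and the adaptor SHC1 (-0.34). In the difference between lines, 10 of the 32 were called below 0 and 0 above, beside 13.4% and 14.4% over all genes. That count of 0 was 0 or 1 over 19 alternatives. The symbol PIK3R2 stands on 2 entries that hold values, and 1 of them was used.

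The list of feedback inhibitors and receptor removal also held regulators and partners of other kinds. These were RASA1, NF1, PTPN1, PTPRF, PTPRJ, FLRT2 and FLRT3. Of the whole list, 15 of 24 tested in Rh30 were called lower, 2 higher and 7 neither, with a median of -0.24. Over all genes, 13.2% were lower and 15.3% higher. The count of lower genes ran from 10 to 15 over 13 alternatives. In RD, 8 of 25 were higher and 6 lower (median 0.02), beside 21.6% and 19.5% over all genes. SPRY4, a Sprouty inhibitor of receptor signals to Ras, rose in RD from 56.3 ± 1.76 to 89.4 ± 1.78 FPKM (0.66, adjusted p = 5.08e-05) and fell in Rh30 from 25.1 ± 1.27 to 13.4 ± 0.94 (-0.86, adjusted p = 0.000395 from limma; SD, n = 3 for each level). Its difference between the lines was -1.52 (SE 0.08). The others with the largest called changes were FLRT3, a membrane partner of FGF receptors, in RD (1.10) and Rh30 (0.97), the ERK phosphatase DUSP5 in RD (-0.47), and SPRED3 (-1.46) and the receptor phosphatase PTPRF (-1.03) in Rh30. SPRED3 averaged 3.73 and 0.709 FPKM in Rh30 and passed the filter there through its Scramble level, so it had to differ. DUSP6, another ERK phosphatase and named after its values were seen, fell in Rh30 from 67.5 ± 1.40 to 35.6 ± 2.98 FPKM (-0.91, adjusted p = 0.000288 from limma), and had levels of 430 ± 8.91 and 434 ± 7.51 FPKM in RD (0.01, adjusted p = 0.775). In the difference between the lines, 11 of 25 genes of this list were called below 0 and 1 above, beside 13.4% and 14.4% over all genes.

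**Figure D4:**
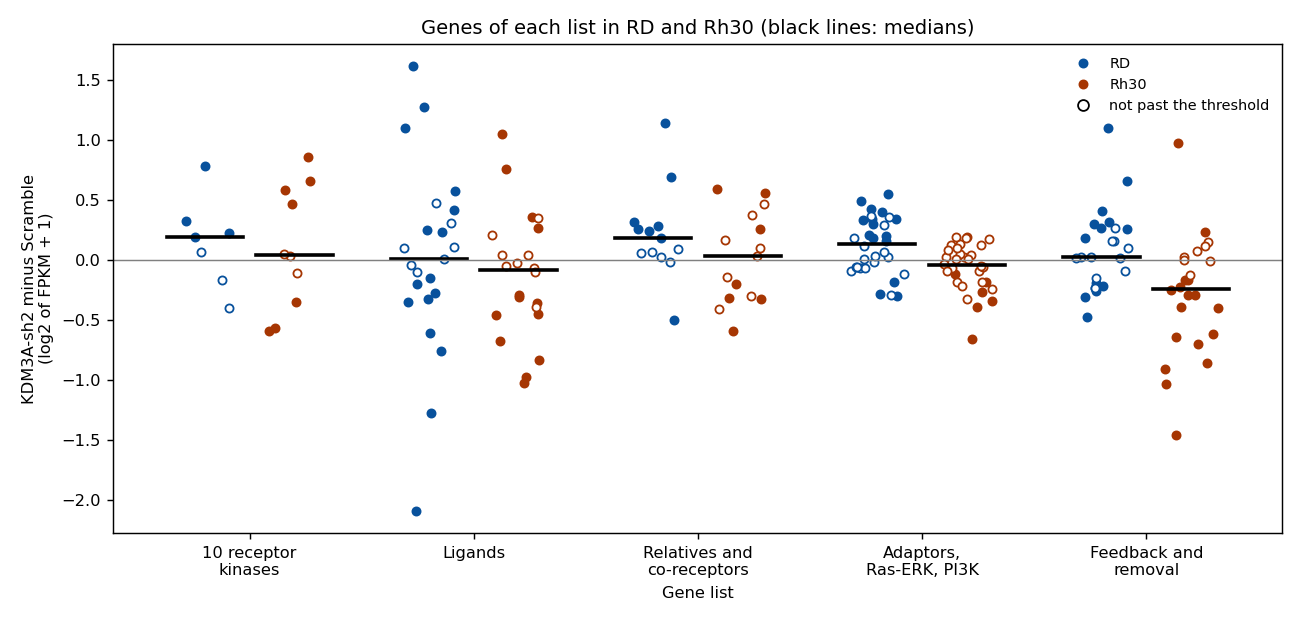
Difference between KDM3A-sh2 and Scramble (log2 of FPKM + 1) for each tested gene of 5 lists, in RD (blue) and Rh30 (brown), with filled points past an adjusted p of 0.05 and black lines at the medians. The points are spread sideways to be seen. The feedback and removal list had a median of -0.24 in Rh30 and 0.02 in RD.

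The 7-base word TGAAGCA was looked up in the longest annotated 3′ UTR of each receptor. It had been seen to be frequent among the genes that KDM3A-sh2 lowered in these same data. The shares that follow describe those same genes and give no separate support, and they were not adjusted for 3′ UTR length. The word was held by 29.3% of called lower genes and 16.9% of all tested genes with a 3′ UTR in Rh30, and by 22.5% and 16.7% in RD. Among genes called higher it was held by 11.1% in Rh30 and 12.2% in RD. Of the 10 receptors, FGFR1, MET, PDGFRB and EPHB2 held 1 copy each and the other 6 held 0. In Rh30 the holders were called lower (FGFR1, PDGFRB), higher (EPHB2) or not at all (MET), and EPHA2, called lower, held 0. In RD, FGFR1 was called higher, and MET, PDGFRB and EPHB2 did not pass. The part of the word in these results was not tested. The site in FGFR1 is not shown. The sites shown lie at chr7:116796427-116796453 (MET, plus strand), chr5:150114712-150114738 (PDGFRB, minus strand) and chr1:22917289-22917315 (EPHB2, plus strand) of GRCh38, with the word in capitals.
MET: tatgggaaatTGAAGCAggaaatattg
PDGFRB: tttgtccagaTGAAGCAaggccatata
EPHB2: cctgcctcacTGAAGCAcaggaaggac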

How the data were processed

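RNA from RD and Rh30 cells was sequenced as directional mRNA libraries on a HiSeq4000. The deposited values are FPKM for each library. Per the submitters' processing notes, the authors used GSNAP, SAMtools and Cufflinks with GRCh38. The annotation release and strand use were not given in the sources used here. Of 66095 table entries, 120 were left out because they repeated an identifier, and 17 genes holding a placeholder value were not used. Positions came from GENCODE 29 and promoters from RefSeq. Groups and replicate numbers came from the labels.

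Each comparison was fitted with limma (version 3.58.1, R 4.3.3) on log2(FPKM + 1), keeping genes that averaged 1 FPKM or more in its libraries, with Benjamini-Hochberg adjustment over all of them. The study used ANOVA on FPKM, which was an alternative here, with other pseudocounts, filters, scalings, a replicate block and single libraries left out. The script was tested on simulated data. The members and lists were chosen with earlier results of these data known. Named were all 10 receptors, KDM3A, ligands of a described receptor, and the 3 called genes of each list with the largest difference in each line, except that some items are not reported here.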

Additional observations from a re-analysis of the deposited data

Results flagged for a closer look

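The response to KDM3A-sh2 differed between Rh30 and RD, by a test of the difference itself in limma over 12 libraries, for 7 of the 10 receptors. Across the 18517 genes tested, 14.4% were called above 0 and 13.4% below. The value (log2 difference in Rh30 minus that in RD) was 1.26 for EPHB2, 0.80 for FGFR3, 0.44 for PDGFRA, -0.92 for EPHA2, -0.75 for DDR1, -0.54 for FGFR1 and -0.33 for DDR2. EPHA2 and FGFR1 were called in opposite directions within the lines, while EPHB2 in RD did not pass its own test. The RD call of FGFR1 was kept in 6 of 13 alternatives, and that of EPHA2 in all 13. DDR1 was called in RD and had a difference of 0.03 in Rh30. FGFR3 (0.204 to 0.479 FPKM) and PDGFRA (0.244 to 0.327 FPKM) lay under the filter in all 6 RD libraries and were not tested there, so their values mostly restate the Rh30 change. For PDGFRA the call between the lines was kept in 4 of 18 alternatives and for DDR2 in 10 of 19.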

How the results depend on the processing

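Over 529 values of the receptors under alternatives, 463 kept the direction and the side of the threshold, 55 kept the direction and lost the call, 4 gained it and 7 changed sign. All 7 sign changes were of differences that had not passed: MET in RD (-0.0095 to 0.12 over single libraries left out), DDR1 in Rh30 (-0.018 to 0.10) and MET between the lines (-0.075 to 0.055), the last also with ANOVA on unlogged FPKM (1.08 FPKM).

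The number of receptors called higher in RD was 4 as reported, 2 without a filter and 2 with ANOVA on unlogged FPKM. It was 2 to 3 with single libraries left out. Of all genes tested, 3474 of 33511 were called higher in RD without a filter and 3211 of 17988 with ANOVA. The number of receptors called lower in RD was 0 to 1. In Rh30 the number called higher was 2 without a filter and 2 to 4 with single libraries left out. It was also 2 with a filter of 10 FPKM, which removes low genes. FGFR3, PDGFRA and PDGFRB lay below 10 FPKM in every Rh30 library and were not tested with that filter. Among all genes tested in Rh30, 2131 of 32977 were called higher without a filter and 2177 of 11426 with that filter. The number of receptors above 0 between the lines was 1 with that filter, under which FGFR3 and PDGFRA were not tested. In that setting 2362 of 12921 genes were called above 0. Over all genes, calls of higher in Rh30 numbered 1621 to 2127 with single libraries left out, compared with 2719, with the lowest count without Rh30 KDM3A-sh2 replicate 1. The causes were not tested except where named.

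Samples with the same replicate number did not deviate together (correlations from -0.0744 to 0.0559), so they share only a number. With a replicate block, 1 receptor was called lower in RD (EPHB2, adjusted p = 0.0469), and 1798 genes were called higher in Rh30. The block also removed the calls of DDR2 in RD, PDGFRA and PDGFRB in Rh30, and PDGFRA and DDR2 between the lines.

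FPKM without counts, a single hairpin and 3 libraries per group limit the precision, and in the lines the amount of RNA per cell was not measured.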
